A study of Mus musculus with 6 samples.

Results

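Chromatin accessibility was examined at 10 mouse genes of the serum response factor, actin and myosin group: Srf, Mrtfa, Actb, Actg1, Myh9, Vcl, Cnn2, Tpm3, Tpm4 and Zyx. A peak was counted as theirs when the nearest end of a protein-coding gene lay within 50 kb of its midpoint and belonged to one of them. This gave 39 of the 42632 peaks in the table, at 9 of the 10 genes. Myh9 had 14 peaks, Actb 6, Tpm4 4, and Vcl, Tpm3 and Zyx 3 each, while Srf, Mrtfa and Cnn2 had 2 each and Actg1 had 0. The peaks came from ATAC-seq, in which a transposase inserts adapters into open DNA, of long-term haematopoietic stem cells (LT-HSCs). The cells were taken from the bone marrow of C57BL/6 mice of 10 to 16 weeks and sorted as Lin- Sca1+ cKit+ CD34- Flt3-. Unconfined cells (3 libraries) spent 16 h in suspension. Confined cells (3 libraries) were kept suspended for 13 h and were given 0.5 h to settle on glass coated with fibronectin. They then spent 2 h under a ceiling held up by pillars of 5 µm and were detached with a dissociation reagent. The comparison asks what squeezing a stem cell does to its open chromatin, but all confined libraries also went through attachment and detachment, and these steps cannot be told apart from the squeezing. The labels call the libraries of a group biological replicates without saying whether each came from separate animals, so p-values measure the spread between these libraries.

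Srf encodes a transcription factor that binds the CArG box, a short A- and T-rich element near the start of many cytoskeletal genes. Its cofactor MRTF-A, the product of Mrtfa, is held back by unpolymerised actin and enters the nucleus when actin is assembled into filaments, so this pathway reads the state of the cytoskeleton. Its known targets include Srf itself, the actins Actb and Actg1, and genes for proteins that act on filaments: vinculin (Vcl) and zyxin (Zyx) at adhesions, calponin 2 (Cnn2) and the tropomyosins (Tpm3, Tpm4) along filaments. Myh9 encodes the heavy chain of non-muscle myosin IIA, the motor that pulls on these filaments. In blood stem cells this machinery is known for its part in adhesion and migration.

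The start-site sequences were taken from RefSeq (GRCm38.p6, the assembly also called mm10), which listed 11 windows for 9 of the 10 genes, all but Actb, each running from 250 bases before to 50 bases from a start site. The windows were searched on both strands for the CArG box (CC, then 6 bases of A or T, then GG), the ETS core CCGGAA, the GC box GGGCGG and the TATA box TATAAA. Srf, Vcl, Cnn2 and Actg1 each held an exact CArG box, an element present in 1.63% of the 32851 listed windows. The stretches that hold it are shown because they are the letters SRF is known to read, 5′ to 3′ on the strand of the gene, with the CArG boxes in capitals. They are chr17:46556163-46556292 (minus strand) for Srf, chr14:20929148-20929247 (plus) for Vcl, chr10:79988490-79988599 (plus) for Cnn2 and chr11:120348496-120348605 (minus) for Actg1.
Srf: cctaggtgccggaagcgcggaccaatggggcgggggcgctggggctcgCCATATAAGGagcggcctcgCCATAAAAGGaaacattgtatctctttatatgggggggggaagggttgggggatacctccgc
Vcl: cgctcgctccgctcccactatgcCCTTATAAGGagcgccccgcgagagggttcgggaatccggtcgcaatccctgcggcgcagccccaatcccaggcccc
Cnn2: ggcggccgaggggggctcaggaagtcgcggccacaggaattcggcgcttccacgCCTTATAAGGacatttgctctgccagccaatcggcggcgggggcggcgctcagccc
Actg1: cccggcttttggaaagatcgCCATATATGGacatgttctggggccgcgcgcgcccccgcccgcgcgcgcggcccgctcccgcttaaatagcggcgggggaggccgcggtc

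The 2 CArG boxes of Srf began 82 and 62 bases before its start, and an ETS core, the element read by the other family of SRF cofactors, began at base 122 before it. A stretch of 10 bases that differs from the CArG box at 1 base began 39 bases before the Srf start and overlapped the TATA box there. The boxes of Cnn2, Actg1 and Vcl began 56, 90 and 227 bases before the start. Those of Srf and Vcl lay inside a peak, that of Cnn2 lay outside its 2 peaks, and Actg1 had no peak. No exact CArG box was in the windows of Myh9, Mrtfa, Zyx, Tpm3 or Tpm4. Windows of Mrtfa and Tpm3 held a form with 1 mismatch, but 21.1% of all windows held a form with at most 1. Myh9, where the only called change was found, held 6 GC boxes, an element present in 35.7% of windows. The 4 of them that lie before the start are in capitals in its upstream sequence (chr15:77842176-77842425, minus strand).
Myh9: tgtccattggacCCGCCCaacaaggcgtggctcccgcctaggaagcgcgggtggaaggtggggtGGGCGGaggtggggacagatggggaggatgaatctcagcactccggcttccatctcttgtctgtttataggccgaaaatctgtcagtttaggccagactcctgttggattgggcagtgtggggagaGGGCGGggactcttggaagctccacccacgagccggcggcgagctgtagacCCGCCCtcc

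Confined libraries 2 and 3 stood apart from all others before any gene was considered. Libraries 1 to 3 of the unconfined cells held 304898, 1229478 and 983863 counts in peaks, and those of the confined cells 340922, 221390 and 128257. Across the 42632 peaks, log2(CPM + 1) of confined libraries 2 and 3 had correlations of -0.0270 to 0.05 with the unconfined libraries, against 0.418 to 0.524 for confined library 1 and 0.676 to 0.824 among unconfined libraries. Among the confined libraries the correlations were only 0.0194 to 0.0856, so libraries 2 and 3 shared little with each other or with library 1. Confined means below are thus taken over libraries with little common pattern across peaks. A peak over a listed start site held on average 1.81 to 2.18 times the counts of another peak in the unconfined libraries, 1.30 times in confined library 1, and 0.889 and 0.876 times in confined libraries 2 and 3. Results are therefore also given with confined library 1 alone.

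The starts of 6 of the genes lay under a peak, at Srf, Mrtfa, Myh9, Zyx, Vcl and Tpm4. By distance to the annotated gene ends, 6 of the 39 peaks were gene-end peaks (midpoint within 1 kb) and 33 were distal. The gene-end peaks were the start peaks of Mrtfa, Myh9, Zyx, Vcl and Tpm4 and 1 peak 819 bp from the far end of Cnn2. The Srf start peak counted as distal, because its midpoint lay 1944 bp from the nearest annotated gene end while the peak covered the listed start site. Of the distal peaks, 21 had their midpoint inside the gene and 12 outside. For Actg1, the cytoplasmic gamma actin, the nearest peak (chr11:120357825-120358524) lay 9679 bp away and belonged by the rule to Fscn2. Exon and UTR positions are not given, because the annotation used here holds gene ends and start sites only.

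At the genes of the regulators, the start peaks of Srf and Mrtfa were among the highest peaks of the unconfined libraries. The Srf start peak (chr17:46555974-46556673) had 42, 86 and 91 counts in libraries 1 to 3 of the unconfined cells against 16, 9 and 3 in those of the confined cells. Ranked within its own library, it stood at the 99.3, 97.2 and 97.6 percentile of all peaks when unconfined and at 94.4, 90.4 and 55.9 when confined. All 3 confined ranks were thus below all unconfined ranks, with the lowest in confined library 3. Ranks in confined libraries 2 and 3 are coarse, because their median peak held 5 and 3 counts. In confined library 2, peaks with 4 and 5 counts ranked at 37.1 and 51.9. In confined library 3, peaks with 2 and 3 counts ranked at 36.5 and 55.9. This holds for all ranks given below. The Mrtfa start peak (chr15:81190592-81191291) had 44, 114 and 124 counts against 27, 4 and 6. Its ranks were 99.4, 98.9 and 99.1 when unconfined and 99.5, 37.1 and 90.9 when confined, so the groups overlapped: confined library 1 kept it as high as any unconfined library. Srf also had a peak inside the gene (chr17:46552767-46553466), with 13, 66 and 49 counts against 12, 10 and 8. That peak ranked between 84.4 and 97.5 in all 6 libraries, with no separation of the groups.

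The start peak of Myh9 (chr15:77841969-77842668) had 43, 114 and 164 counts when unconfined and 17, 5 and 2 when confined. It ranked at 99.4, 98.9 and 99.7 when unconfined and at 95.7, 51.9 and 36.5 when confined. In confined libraries 2 and 3 it was thus close to the middle of the list or below it, on 5 and 2 counts, where 1 count more or less moves a rank by many points. At Zyx, whose product marks adhesions under tension, the start peak (chr6:42349481-42350180) had 24, 118 and 117 counts against 18, 3 and 5. Its ranks of 96.4, 99.0 and 98.9 stood beside 96.6, 23.0 and 83.5, with confined library 1 inside the unconfined range. At Vcl, which links adhesions to actin, the start peak (chr14:20928946-20929645) had 11, 74 and 62 counts against 15, 8 and 2. Vcl was the start peak with the least separation among the high ones, and in confined library 1 its rank of 92.9 exceeded that of unconfined library 1 at 82.4. The Tpm4 start peak (chr8:72134885-72135584) was low throughout, with 3, 21 and 4 counts against 3, 5 and 2, and ranked no higher than 51.9 in any library.

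Tpm3 and Cnn2 had no peak over a listed start, and Actb had no listed start in the table used here. Tpm3, a tropomyosin gene with 2 listed starts, had its highest peak (chr3:90079548-90080247) a few bases inside the second of them. That peak had 24, 59 and 60 counts when unconfined and 9, 3 and 4 when confined, and its ranks did not overlap: 92.2 to 96.4 against 23.0 to 72.0. Actb encodes cytoplasmic beta actin, and its peak inside the gene (chr5:142905986-142906685) had 16, 55 and 54 counts against 7, 6 and 5, with ranks of 90.9 to 91.5 against 48.2 to 83.5. A further Actb peak, 13028 bp outside the gene (chr5:142920655-142921354), was higher, with 20, 87 and 75 counts against 20, 8 and 7. It stayed between 84.7 and 98.0 in all 6 libraries. The 2 peaks of Cnn2 had 10, 44 and 25 against 8, 2 and 7 counts (chr10:79986793-79987492, 1458 bp outside the gene) and 4, 27 and 20 against 6, 2 and 4 (chr10:79994232-79994931, near the far end). Cnn2 ranks overlapped at both peaks.

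**Figure D1:**
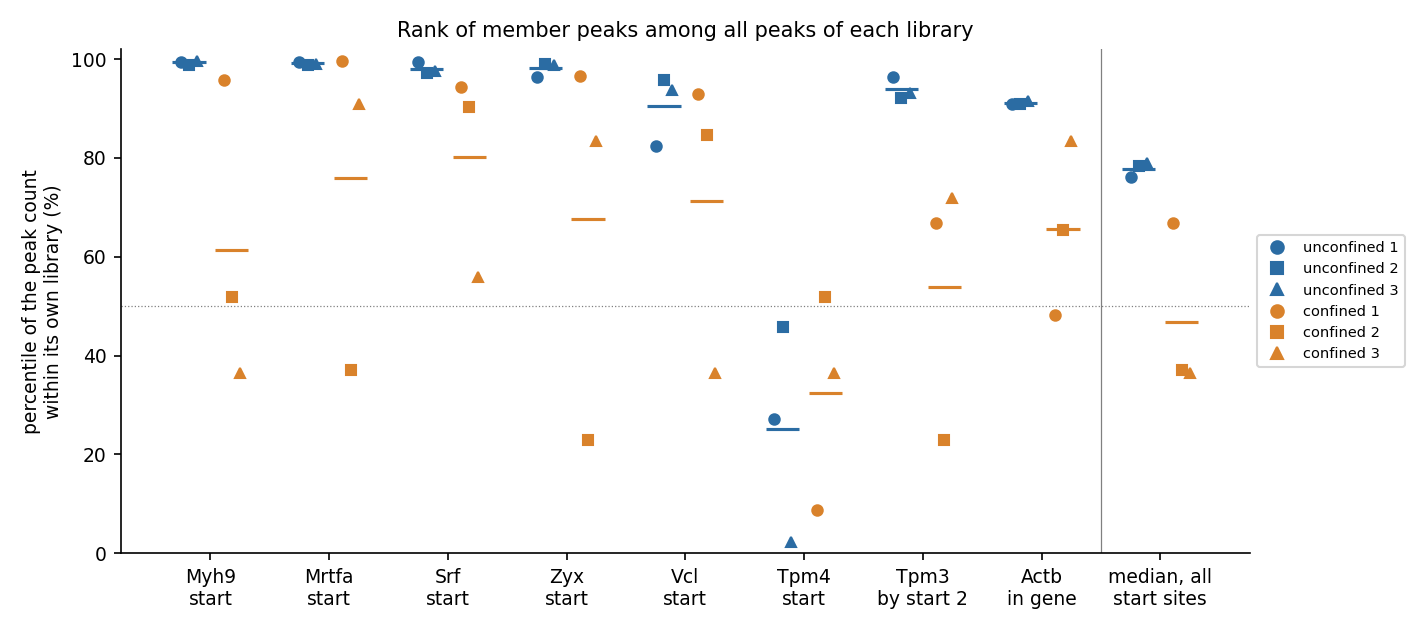
Percentile of the peak's count among all 42632 peaks of the same library, for the 6 start-site peaks and the leading peaks of Tpm3 and Actb, with the median over all start-site peaks at the right; points are single libraries and short lines are group means. Myh9, Mrtfa, Srf and Zyx lie above 96 in every unconfined library, while the confined libraries spread from 23.0 to 99.5, and the median start-site peak ranks at 76.2 to 78.9 when unconfined and 36.5 to 66.9 when confined.

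The ranks of start-site peaks were lower in the whole of the confined data, and the members have to be read against that. The median rank of all 9286 start-site peaks was 76.2, 78.3 and 78.9 without confinement and 66.9, 37.1 and 36.5 with it. Over all 39 member peaks, 5 ranked lower in every confined than in every unconfined library (Myh9 start, Srf start, Tpm3, and 2 Actb peaks), and 14.1% of all peaks did so. Another 5 ranked higher in every confined library, all of them Myh9 peaks away from the start, beside 9.08% of all peaks. ATAC-seq of a bulk sample cannot tell a site open in fewer cells from a site less open in each cell.

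Of the 12 member peaks with enough counts to be tested, 1 passed the test (edgeR quasi-likelihood, TMM scaling, Benjamini-Hochberg over 9084 peaks, threshold 0.05). The Myh9 start peak fell from 280 ± 59.7 to 99.1 ± 39.8 CPM (counts scaled by TMM to a common library total; mean and SD, n = 3 libraries each), 2.41-fold lower. Its log2 fold change was -1.27 with a standard error of 0.39 (edgeR adjusted p = 0.0324), and all 3 confined libraries were below all 3 unconfined ones. Over all tested peaks, 2.42% were called lower and 5.79% higher, and among tested start-site peaks 3.61% were called lower. The Myh9 call was lost with the labelled batch as a replicate block (adjusted p = 0.0990), with DESeq2 (0.0692), without unconfined library 3 (0.108) or confined library 2 (0.0784), and with confined library 1 alone (log2 fold change -1.63, adjusted p = 0.211). Its log2 fold change was between -2.23 and -1.26 under every alternative run.

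None of the other tested member peaks passed. Zyx came nearest: its start peak averaged 208 ± 41.2 CPM when unconfined and 121 ± 56.6 when confined (SD, n = 3), a log2 fold change of -0.79 ± 0.36 (SE, edgeR adjusted p = 0.153). Zyx and Myh9 were the 2 of 12 whose confined CPM were all below the unconfined ones, beside 18.3% of all tested peaks, and 0 of 12 were all above, beside 14.1%. The regulators had lower means as well, 211 ± 63.2 against 132 ± 36.4 CPM at the Srf start (log2 fold change -0.52 ± 0.35, adjusted p = 0.368) and 255 ± 39.7 against 163 ± 78.7 CPM at the Mrtfa start (-0.49 ± 0.35, adjusted p = 0.400). With these standard errors neither estimate could be told apart from 0, and a change of about this size was not excluded. Tpm3 gave -0.67 ± 0.39 (adjusted p = 0.281), the Actb peak inside the gene -0.28 ± 0.39 (0.703) and the Vcl start -0.03 ± 0.35 (0.975). The estimates above 0 were all at peaks away from a start: Myh9 peaks 3 and 6 inside the gene (0.35 ± 0.36 and 0.68 ± 0.40), the Srf peak inside the gene (0.45 ± 0.35), the Cnn2 peak outside the gene (0.33 ± 0.49) and the Actb peak outside the gene (0.14 ± 0.31). Of these 5 estimates, 4 were below 0 with scaling to total counts, which moved the median of all tested peaks from -0.02 to -0.68, and all 5 were below 0 without the filter on low counts.

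**Figure D2:**
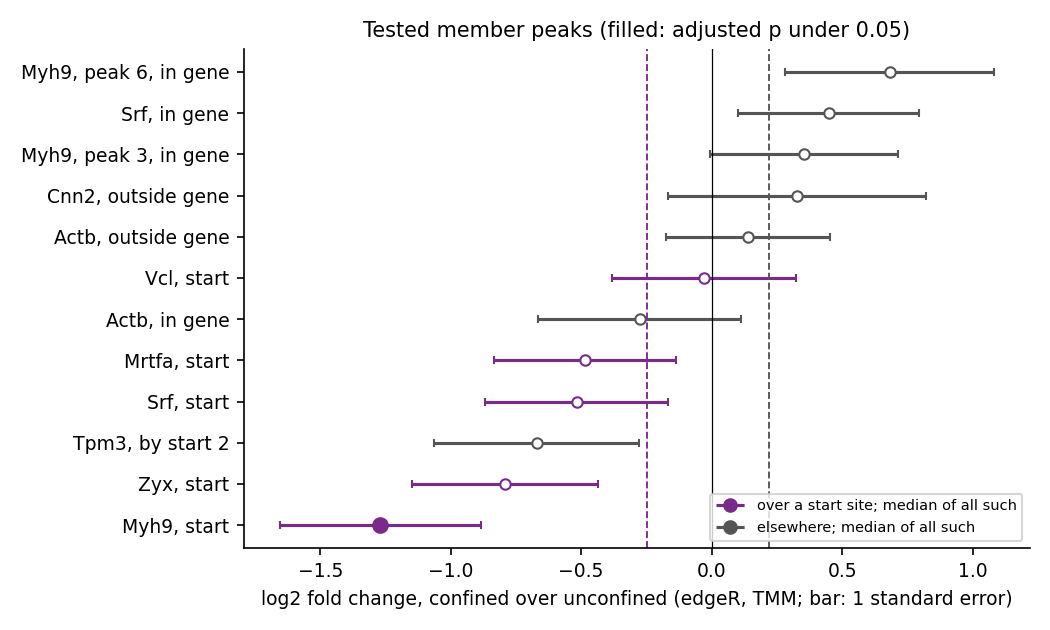
Log2 fold change, confined over unconfined, of the 12 tested member peaks with bars of 1 standard error (edgeR, TMM scaling); purple marks peaks over a start site, dashed lines mark the medians of all tested peaks of each kind, and the filled point passed the test. The 5 start-site peaks lie at or below 0, from -1.27 at Myh9 to -0.03 at Vcl, and the 5 estimates above 0 are at peaks elsewhere (4 of them below 0 with total-count scaling, and the Vcl start above 0 with DESeq2 or the replicate block).

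Start-site and other peaks of the group went apart as those classes did over all tested peaks. The 5 tested start-site members had a median log2 fold change of -0.52, beside -0.25 over all 4214 tested start-site peaks. The 7 other tested members had a median of 0.33, beside 0.22 over 4870 peaks. By distance to gene ends, the 4 tested gene-end members had a median of -0.64 (all gene-end peaks -0.26) and the 8 distal ones 0.23 (all distal peaks within 50 kb 0.25). The distal median was -0.27 without confined library 3, and the gene-end median was -1.27 without confined library 1. These medians cover only the 12 members that passed the filter on low counts. The other 27, the Tpm4 start and the Cnn2 far end among them, had 1 to 37 counts when unconfined and 0 to 15 when confined. The median log2 fold change was -0.26 over the 59 tested start-site peaks whose window held a CArG box, Srf and Vcl among them, and -0.25 over the 4155 without. Of the 59 peaks 1 was called lower (1.69%) and 0 higher, and of the 4155 others 3.63% were called lower and 1.06% higher. The difference between the sets was not tested.

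With Srf, Mrtfa, Myh9, Zyx, Vcl and Tpm4, the share of counts can also be taken within each gene, which needs no scaling between libraries. At Myh9, the start peak held 39.4%, 28.8% and 44.1% of the counts of the gene's 14 peaks in unconfined libraries 1, 2 and 3. Under confinement it held 11.9% (95% Clopper-Pearson interval 7.08 to 18.4), 6.10% (2.01 to 13.7) and 3.45% (0.420 to 11.9), intervals that cover counting error only. The mean went from 37.4% ± 7.84 to 7.14% ± 4.32 (SD, n = 3), a difference of -30.3 percentage points (two-sided exact permutation p = 0.1, which no design of 3 against 3 can go below). Over the 565 genes with a single start-site peak and at least 6 peaks in all, the median difference was -6.64 points (quartiles -15.5 and -0.77), and 32 of them (5.66%), Myh9 included, were at or below Myh9. The median start share of these genes was only 18.9%, 17.3% and 20.3% in unconfined libraries 1 to 3. A gene with so low a share cannot fall as far as Myh9, so its place among them depends partly on its higher unconfined share. With confined library 1 alone the difference at Myh9 was -25.6 points, the median over the 565 genes was -4.92, and 23 of them (4.07%) were at or below Myh9. This share was chosen after the data had been seen.

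The start share of the other genes had wider limits. At Zyx it was 65.1% ± 8.04 when unconfined and 36.2% ± 8.04 when confined (SD, n = 3; two-sided exact permutation p = 0.1), with all 3 confined libraries lower. At Mrtfa it was 89.9% ± 7.36 and 62.8% ± 21.2 (exact p = 0.2), and at Srf 66.0% ± 9.93 and 43.9% ± 15.2 (exact p = 0.2). In both genes confined library 1 lay within the unconfined range. Vcl gave 64.4% ± 10.4 and 47.0% ± 35.1 (exact p = 0.6), where confined library 1 had the highest share of all 6 libraries. Tpm4 gave 20.5% ± 11.5 and 21.9% ± 7.83 (exact p = 0.9). These genes have fewer than 6 peaks each, so the 565 genes above are not matched to them. Among those 565 genes, the mean start share was lower under confinement in 441.

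**Figure D3:**
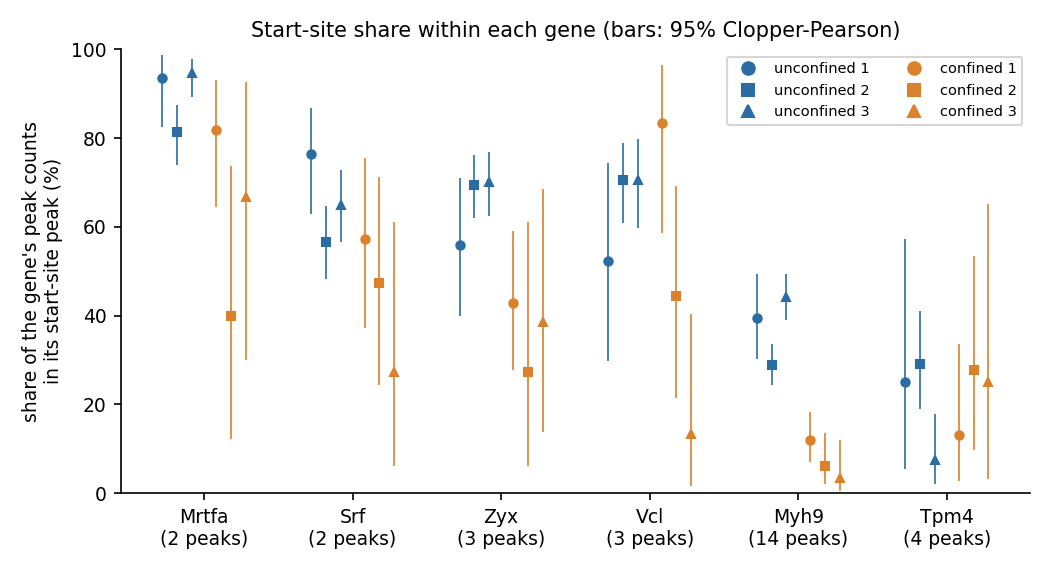
Share of all counts in a gene's peaks that fell in its start-site peak, per library, for 6 genes, with 95% Clopper-Pearson intervals of counting error. At Myh9 the unconfined libraries lie between 28.8% and 44.1% and the confined ones between 3.45% and 11.9%; at Vcl and Tpm4 the groups overlap.

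Away from its start, Myh9 went the other way. Its 13 other peaks lay from 15708 bp before the start to 69020 bp inside the gene, with 1 to 61 counts each when unconfined and 1 to 20 when confined. Summed, and scaled as the gene sums below, they held 279, 295 and 270 CPM when unconfined and 492, 500.1 and 615 CPM when confined. The confined libraries were all higher (281 ± 12.6 against 536 ± 69.0, SD, n = 3; exact two-sided p = 0.1 by permutation, the lowest this design gives). Without scaling, they took 0.0216%, 0.0229% and 0.0211% of all counts when unconfined and 0.0370%, 0.0348% and 0.0437% when confined, while they are 0.0305% of all peaks. Their unconfined share was therefore below, and their confined share above, what equal counts at every peak would give. The confined mean was above the unconfined one at 11 of the 13, and the share over all peaks was not taken. Peaks away from a start ranked higher under confinement in the whole data as well. The median rank of all peaks not over a start site was 39.4, 41.7 and 43.1 when unconfined and 48.2, 51.9 and 55.9 when confined. Only 2 of the 13 Myh9 peaks had enough counts for the main test, and neither passed. Without the filter on low counts, 2 of the 13 were called higher: peak 1, 69020 bp inside the gene, and peak 8, 11199 bp inside it. That fit called 1.47% of all 42632 peaks higher and 4.27% lower.

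**Figure D4:**
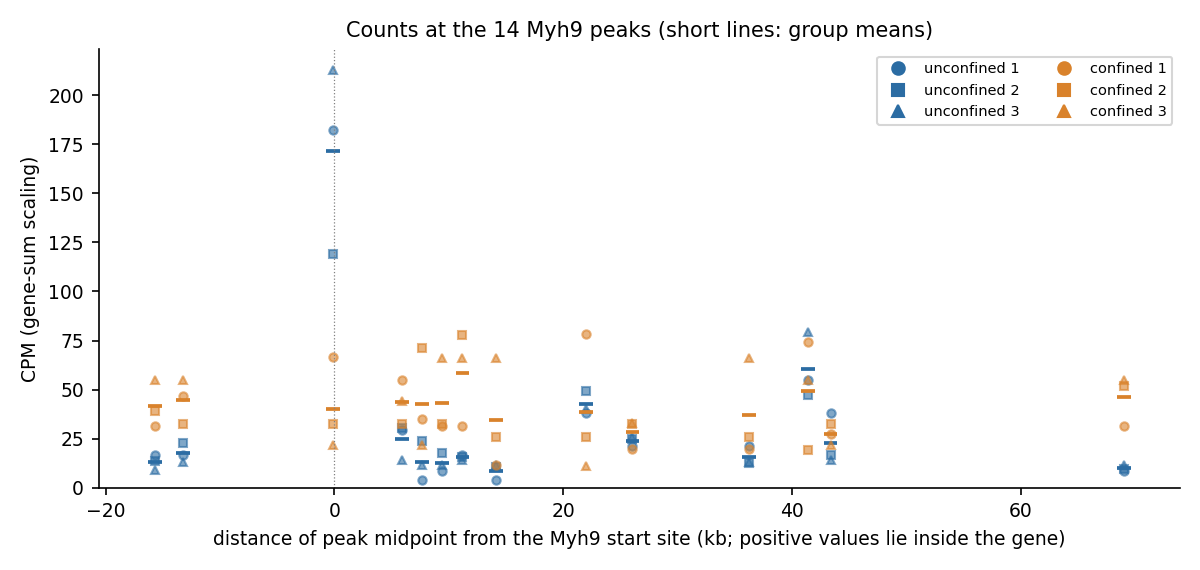
CPM (gene-sum scaling) at the 14 Myh9 peaks against the distance of the peak midpoint from the start site in kb, positive into the gene; points are single libraries and short lines are group means. The start peak is the highest of all in the unconfined libraries, whereas in the confined libraries it lies among the other peaks.

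Counts were also summed over all peaks of each gene and fitted over 10031 genes. None of the 9 member genes passed the test (edgeR quasi-likelihood, Benjamini-Hochberg), while 11.1% of all genes were called lower and 9.54% higher; 3 members had an unadjusted p under 0.05. These were the 3 whose confined sums were all below the unconfined ones, beside 22.0% of all genes. Mrtfa went from 199, 146 and 170 CPM to 129, 65.0 and 98.9 CPM, a log2 fold change of -0.72 ± 0.28 (SE; adjusted p = 0.0662 in edgeR). Srf went from 233, 159 and 182 to 109, 123 and 121 CPM (-0.66 ± 0.26, adjusted p = 0.0675). Zyx went from 182, 178 and 217 to 164, 71.4 and 143 CPM (-0.58 ± 0.27, adjusted p = 0.116). The 2 genes whose confined sums were all above, beside 18.9% of all genes, were Myh9 (453 ± 35.1 to 576 ± 54.6 CPM, SD, n = 3; 0.34 ± 0.17 on the log2 scale, SE) and Tpm4 (65.4 ± 12.9 to 98.2 ± 16.2 CPM; 0.51 ± 0.31). Their edgeR adjusted p-values were 0.158 and 0.226. Calls did arise under other settings: Mrtfa and Srf were called lower with total-count scaling and without unconfined library 2, Mrtfa and Zyx without confined library 1, and Myh9 higher when only peaks within 20 kb were summed. Tpm3 (-0.41 ± 0.28), Actb (-0.21 ± 0.21), Cnn2 (-0.14 ± 0.38) and Vcl (-0.02 ± 0.30) overlapped between groups.

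The number of peaks moved with these sums across all genes. Genes with 1 or 2 peaks had a median log2 fold change of -0.36 (4948 genes, 18.2% called lower and 4.30% higher). Genes with 3 or 4 peaks had 0.23, those with 5 to 9 had 0.27 and those with 10 to 36 had 0.32 (545 genes, 2.39% lower and 18.2% higher). The members are placed here by their peaks within 50 kb, so a member with peaks farther away may belong to a higher class. On that count, Srf and Mrtfa, with 2 peaks each, were below the first median, and Cnn2, also with 2, was above it. Myh9 with 14 peaks was close to the last. Zyx, Tpm3 and Vcl, with 3 peaks each, and Actb with 6 were below the medians of their classes, and Tpm4 with 4 peaks was above. Whether the number of peaks accounts for the differences between members was not tested.

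**Figure D5:**
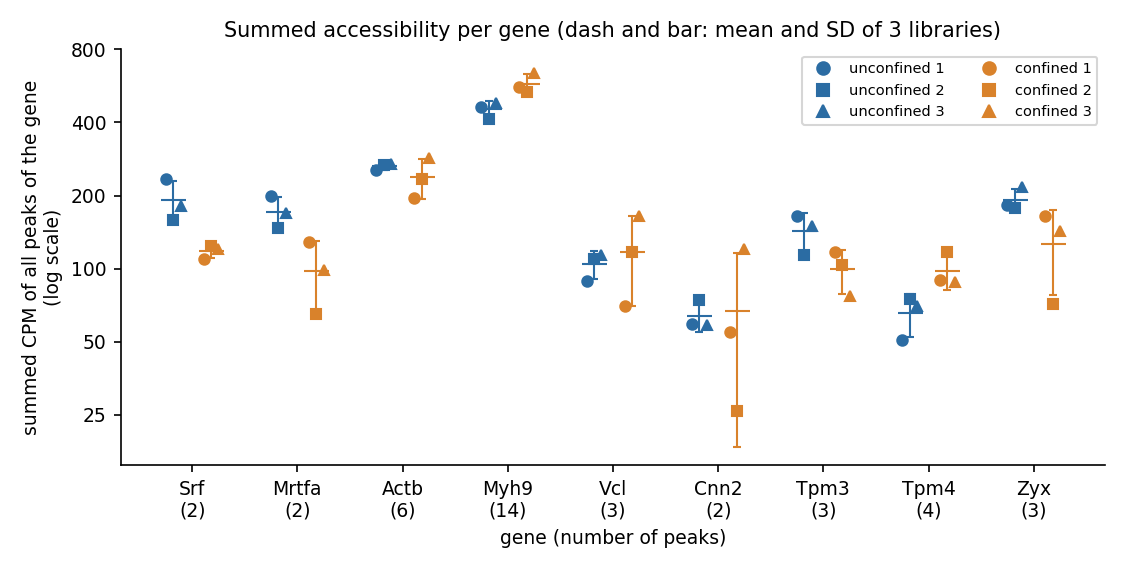
Summed CPM of all peaks of each member gene (log axis), per library, with the mean and SD of 3 libraries and the number of peaks in brackets. Srf, Mrtfa and Zyx have all confined libraries below the unconfined ones, Myh9 and Tpm4 all above, and none passed the test.

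As a share of all counts in a library, the 6 gene-end members took 0.0423%, 0.0381% and 0.0499% when unconfined and 0.0252%, 0.0122% and 0.0164% when confined. The means were 0.0434% ± 0.0060 and 0.0179% ± 0.0067 (SD, n = 3; exact two-sided p = 0.1 by permutation, the lowest this design gives), and the confined share was close to the 0.0141% of peaks that these 6 are. Gene-end peaks were lower under confinement in the whole data as well. The median rank of all 11273 of them was 71.8, 74.7 and 75.8 when unconfined and 58.3, 37.1 and 36.5 when confined. The 33 distal members took 0.0849% ± 0.0037 and 0.0926% ± 0.0124 (exact p = 0.4). With confined library 1 alone the gene-end share differed by -0.0182 and the distal share by 0.00162 percentage points.

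Of 44 further genes of the pathway, 38 had a peak and 33 could be tested by their sums, and 5 were called higher and 5 lower (edgeR adjusted p from 0.00288 to 0.0390), beside the 9.54% of all genes called higher and 11.1% called lower. Their median log2 fold change of -0.03 stood beside 0.02 over all genes. Among the SRF cofactors, Elk3, an ETS partner of SRF, rose from 165 ± 4.65 to 279 ± 46.5 CPM (SD, n = 3; log2 fold change 0.74). Mrtfb, the relative of Mrtfa, gave -0.07 ± 0.22 (SE), and 3 more were not called or not tested. Of the immediate early genes that SRF is known to drive, 2 of 5 fell: Egr1 by 0.98 and Junb by 0.87 on the log2 scale. Both have 3 peaks within 50 kb, and 4.99% of the genes with 3 or 4 peaks at any distance were called lower. Fos gave -0.23 ± 0.20. Among myosin chains and their kinase, Myl12a, a regulatory light chain that binds non-muscle myosin, fell from 99.3 ± 13.2 to 26.8 ± 10.6 CPM at its single peak (-1.88), and Mylk, the kinase of such chains, rose (0.94).

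At adhesions and crosslinks, Tln1, the talin that binds integrins and vinculin, fell from 199 ± 0.620 to 92.6 ± 27.6 CPM (SD, n = 3; log2 fold change -0.996), and Actn1, a crosslinker of filaments, rose from 113 ± 2.55 to 201 ± 55.1 CPM (0.77). Pxn, the highest of the 9 genes in that role, gave 0.48 ± 0.21 (SE, edgeR adjusted p = 0.0925). Among proteins that bind actin monomers or turn filaments over, Gsn (0.79) and Tmsb4x (0.78) rose and Cap1 fell by 0.72 on the log2 scale. In the role of tropomyosins, calponins and transgelins 0 of 4 tested genes were called, and Tagln2, with the highest mean over all 6 libraries, gave -0.42 ± 0.23. Other actins had 1 gene with a peak, Acta2, which was too low to test. The 5 genes that rose had 5 to 9 peaks each and the 5 that fell had 1 to 4. With peaks counted at any distance, 17.1% of all genes with 5 to 9 peaks were called higher. Called lower were 18.2% of those with 1 or 2 peaks and 4.99% of those with 3 or 4. Mrtfb, Tmsb4x and Cap1 were named after their values had been seen. The counts of genes called higher were 0 without unconfined library 1, without unconfined library 3 or without confined library 2. With confined library 1 alone 0 were called higher and 1 lower.

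Over the 9 members together, the summed CPM were 1693, 1539 and 1713 when unconfined and 1488, 1390 and 1736 when confined. The genes whose sums followed this profile most closely over the 6 libraries were Lemd2, Angel1 and Hilpda. Their root mean square differences on the centred log2 scale were 0.0313, 0.0344 and 0.0576, against a median of 0.492 over 10022 genes. They were picked as the smallest of these, so lying far below the median follows from the choice.

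The labelled cell type was checked at gene-end peaks of marker genes. Of the 11 LT-HSC markers 6 had such a peak, Hlf, Kit, Meis1, Procr and Tal1 among them. The 2 genes that should be low by the sort had one as well. Their mean rank when unconfined was 65.8, beside 67.3 for the LT-HSC markers. Of the T cell markers 0 of 5 had a gene-end peak. B cell markers (Cd79a and Cd79b, 2 of 5) held 29.6 to 53.4 CPM when unconfined and 74.2 to 90.9 when confined. Of all tested gene sums, 18.9% were also higher in every confined library. That share is over sums of all peaks of a gene that passed the filter, so it is not matched to these 3 gene-end peaks. The mean rank of the B cell peaks went from 30.0 to 51.1. That of the erythroid markers went from 23.3 to 32.1, and that of the LT-HSC markers from 67.3 to 55.8. The part of B cells in the results above was not tested.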

How the data were processed

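The authors deposited raw counts per peak for 6 ATAC-seq libraries, with coordinates on mm10. The submitters' processing notes name featureCounts, SAMtools 1.14 and R 4.2.0. Not given in the sources used here are the aligner, the peak caller, removal of duplicates and which libraries entered peak calling. All peaks were 700 bp wide. The members and lists were chosen with earlier results of these data known. Peaks were assigned with RefSeq gene ends and start sites of GRCm38.p6. Counts per peak, and sums per gene, were fitted in R 4.3.3 with edgeR 4.0.16 (TMM scaling, filterByExpr, glmQLFit, glmQLFTest, group as sole term, Benjamini-Hochberg at 0.05) after tests on simulated data, with DESeq2 1.42.0 as an alternative. Tested peaks held 43.2% to 51.2% of counts in unconfined and 23.6% to 34.8% in confined libraries, so untested peaks are given as counts, ranks or shares. A floor of 3 counts equals 5.70 to 20.2 TMM-scaled CPM in unconfined and 25.0 to 94.3 in confined libraries. Single values were compared by exact permutation (SciPy 1.17.1, Python 3.11.15). Every member gene, every tested or gene-end member peak, and pathway genes called (or highest in their role) were named. Batch numbers in the labels pair the libraries; deviations of same-numbered libraries had correlations of 0.00352, 0.00291 and -0.0569 across peaks, so the pairing comes from the label alone. Some marker genes are not reported here.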

Additional observations from a re-analysis of the deposited data

How the results depend on the processing

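Over all peaks, the 526 higher and 220 lower calls became 348 and 2286 with scaling to total counts, 3 and 7 with confined library 1 alone, and 250 to 1696 and 76 to 788 with each library left out in turn. Lower calls numbered 75 with DESeq2, 1821 without the filter on low counts and 74 with the labelled batch as a replicate block. Of member peaks, 4 were called lower with total counts (Myh9, Srf, Tpm3, Zyx), 3 without the filter (Myh9, Tpm3, Zyx), and 0 with DESeq2, the replicate block or confined library 1 alone; leaving out a library gave 0 to 1. Higher calls were 2 without the filter and 0 to 2 with a library left out, each at Myh9 peaks inside the gene. Of the member genes' sums, 2 were lower with total counts, 0 to 2 with a library left out, and 1 was higher at 20 kb. Pathway genes called higher were 3 with total counts, without the filter or at 20 kb, 1 with DESeq2, 0 with confined library 1 alone and 0 to 5 with a library left out. Lower calls there were 1 with confined library 1 alone and 2 to 6 with a library left out. The replicate block changed no other call among member peaks and member gene sums.

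The gene-end median was -1.33 with total counts and -1.27 to -0.58 with a library left out, and the distal median -0.42 and -0.27 to 0.52. The gene-end share differed by -0.0182 points with confined library 1 alone, -0.0328 with a window of 2 kb, -0.0319 by start sites, and -0.0291 to -0.0223 with a library left out. Several small log2 fold changes reversed. With total counts they were -0.33 (Cnn2 peak 1), -0.31 (Myh9 peak 3), -0.17 (Srf inside the gene) and -0.51 (Actb peak 3). Without the filter they were -0.51, -0.54, -0.36 and -0.72 at the same peaks, and -0.18 at Myh9 peak 6. With confined library 1 alone, Cnn2 peak 1 gave -0.62, Srf -0.71 and Actb peak 3 -0.50. The Vcl start gave 0.031 and its sum 0.051 with DESeq2, 0.13 and 0.11 with the replicate block, and the sum 0.10 at 20 kb. With a library left out, ranges were -0.41 to 0.52 (Cnn2 peak 1), -0.25 to 0.41 (Myh9 peak 3), -0.079 to 0.822 (Srf), -0.75 to 0.13 (Actb peak 1), -0.39 to 0.053 (Actb peak 3), -0.29 to 0.28 (Vcl sum) and -0.61 to 0.18 (Cnn2 sum). The causes of these changes were not tested. The confined libraries' depth limits every value above: the Myh9 start rests on 17, 5 and 2 counts there.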
